A study of Mus musculus with 58 samples.

Results

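The genes described here are 47 genes that copy DNA and supply the nucleotides for it. They were taken by gene symbol from a list, and no threshold on measured values chose them, although the list was drawn up with earlier results of these data known. Each of the 47 was found among the 20018 gene names on the array. The list covers 53 probes, and the brightest probe of each gene stands for it. By role, 11 members belong to the replicative helicase, 4 license origins, 9 are polymerase and primase subunits, 8 form the clamp, its loader and the lagging strand enzymes, 4 bind single strands or protect the fork, 5 supply nucleotides, 3 assemble or maintain chromatin, and 3 (Ccne1, Ccne2 and E2f1) drive entry into S phase.

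Male Muta™Mouse animals, a transgenic strain used to score mutations in tissues, were about 13 weeks old. They received indeno(123,cd)pyrene (IP), a polycyclic aromatic hydrocarbon from incomplete combustion, in olive oil by daily gavage over 28 days. The dose was 12.5 (low), 25 (middle) or 50 (high) mg per kg of body weight a day, and vehicle mice had olive oil alone. Lung, liver and forestomach were taken 72 hours after the last dose, and the RNA came from random sections of the frozen organs. Each of 58 arrays carried the RNA of 1 mouse in red (Cy5) against a reference RNA made from mouse cell lines in green (Cy3). Lung had 5 mice in each of the 4 groups. Liver and forestomach had 4 vehicle mice and 5 at each dose, and a mouse number marks the same animal in every tissue. The values are log2 ratios of sample to reference after loess normalization, so 1 probe can be compared between mice, while the levels of different genes cannot be compared with each other.

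Replication starts when the origin recognition complex, with Cdc6 and Cdt1, loads the MCM2-7 ring onto DNA before S phase. Cdc45 and the GINS complex then turn the ring into a moving helicase, polymerase alpha with primase lays down primers, and polymerases delta and epsilon extend them on the PCNA clamp, which the RFC complex loads. Ribonucleotide reductase (Rrm1 and Rrm2), thymidylate synthase (Tyms), thymidine kinase (Tk1) and dUTPase (Dut) keep the nucleotide pools. Many of these genes are switched on together by E2F factors as cells leave G1, and most cells of adult lung and liver are out of the cell cycle, while the squamous lining of the forestomach renews itself steadily.

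The promoter sequences of 38 of the 47 members are in the RefSeq table used (build GRCm38.p6, 250 bases before to 50 after the start). Mcm4, Rfc2, Prim2, Pole, Gins1, Gins2, Gins4, Ccne2 and Tipin had no entry. A search on both strands for the E2F octamers TTTCCCGC, TTTGGCGC, TTTCGCGC and TTTGCCGC, which may overlap each other, found 1 or more in 14 of the 38 (36.8%), against 2.6% of 27025 genes with an entry. The short motif CCAAT was found in 22 of 38 (57.9%, against 41.1%) and GCGTG in 21 of 38 (55.3%, against 35.2%). A pair of promoters with E2F octamers (Mcm6 and Mcm5) and the pair of the ribonucleotide reductase subunits, which hold none, are printed because Mcm6, Rrm1 and Rrm2 carry much of what follows. Capitals mark the octamers, which in Mcm6 begin at −110, −106 and −47 and in Mcm5 at −153 and −149 from the listed start. The windows are Mcm6 at chr1:128359706-128359905 (minus strand), Mcm5 at chr8:75109309-75109467 (plus), Rrm1 at chr7:102441495-102441694 (plus) and Rrm2 at chr12:24708054-24708253 (plus), each upstream of the gene.
Mcm6: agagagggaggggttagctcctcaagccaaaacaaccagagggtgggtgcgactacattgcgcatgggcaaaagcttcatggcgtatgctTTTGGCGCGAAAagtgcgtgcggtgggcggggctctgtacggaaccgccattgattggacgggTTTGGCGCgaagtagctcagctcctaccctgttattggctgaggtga
Mcm5: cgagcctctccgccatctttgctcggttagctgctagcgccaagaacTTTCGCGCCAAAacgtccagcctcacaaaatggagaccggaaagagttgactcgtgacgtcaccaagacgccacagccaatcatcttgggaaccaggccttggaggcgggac
Rrm1: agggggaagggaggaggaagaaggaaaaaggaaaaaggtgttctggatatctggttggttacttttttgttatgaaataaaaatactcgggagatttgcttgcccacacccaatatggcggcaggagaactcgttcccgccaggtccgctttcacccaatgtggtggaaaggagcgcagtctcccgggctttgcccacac
Rrm2: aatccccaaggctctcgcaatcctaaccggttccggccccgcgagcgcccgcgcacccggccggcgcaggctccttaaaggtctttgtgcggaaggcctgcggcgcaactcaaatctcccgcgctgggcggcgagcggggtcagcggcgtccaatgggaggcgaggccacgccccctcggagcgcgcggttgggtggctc

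Of the 47 members, 37 were well above background on all 58 arrays, and no spot was saturated. Ccne2, an E-type cyclin, was well above background on 0 arrays, so its values carry no level. Orc1 was detected on 8 arrays, Cdc6 on 13, Pola2 on 25, Cdc45 on 30 and Pole2 on 41, and Orc1 and Cdc6 on 0 of the 19 liver arrays. The remaining 4 that missed some arrays were Uhrf1 (51 arrays), Tyms (52), Pola1 (53) and Mcm2 (56).

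Some arrays stood apart from the rest in brightness. On the third lung slide (mice 3, 8, 13 and 18, 1 from each group) 83.8% to 90.7% of probes were well above background, against 53.0% to 70.4% on the others. The same held for liver mice 9, 13, 15, 16 and 20 (66.6% to 78.9%, against 37.6% to 45.0%) and for forestomach mice 8 and 18 (81.2% to 85.9%, against 43.0% to 58.9%). Lung epithelium markers (Sftpc, Ager, Scgb1a1 and others) were higher in vehicle lung than in vehicle liver for 8 of 8 genes, hepatocyte markers were higher in liver for 8 of 8, and 7 of 8 squamous markers were higher in forestomach, so each tissue carried its own markers. Apart from 2 liver arrays, the dose group fixed the array's column on its slide, so column and dose cannot be told apart.

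The first question was whether IP changed these genes in the lung. At 50 mg/kg-bw/day the mean of 38 of the 47 members lay above the vehicle mean, with a median log2 difference of 0.18 over the 47 and a range from −0.07 to 0.76. Over all probes 50.2% lay above, and over the brightest probe of each named gene 52.6%, with medians of 0.00 and 0.01. A single member passed the test (limma, Benjamini-Hochberg adjusted p of at most 0.05 over 55681 probes and a fold of at least 1.5), against 0.079% of all probes. This was Tipin, whose protein holds the fork protection complex together when forks stall. Without the adjustment, 19 members were higher with p below 0.05 and 0 were lower, against 5.04% of all probes and 8.1% of named genes in the higher direction. This count was 4 with arrays centred on their median in place of loess, 12 with the Cy5 signal alone, and 12 without vehicle mouse 2 or without treated mouse 18. With that centring 46 of 47 members lay above vehicle in lung (median 0.42, against 0.04 over all probes). The same number, 46 of 47, lay above vehicle in liver and in forestomach, so the shift under that scaling was not particular to lung. In bulk tissue, more cycling cells and more RNA per cell cannot be told apart.

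**Figure D1:**
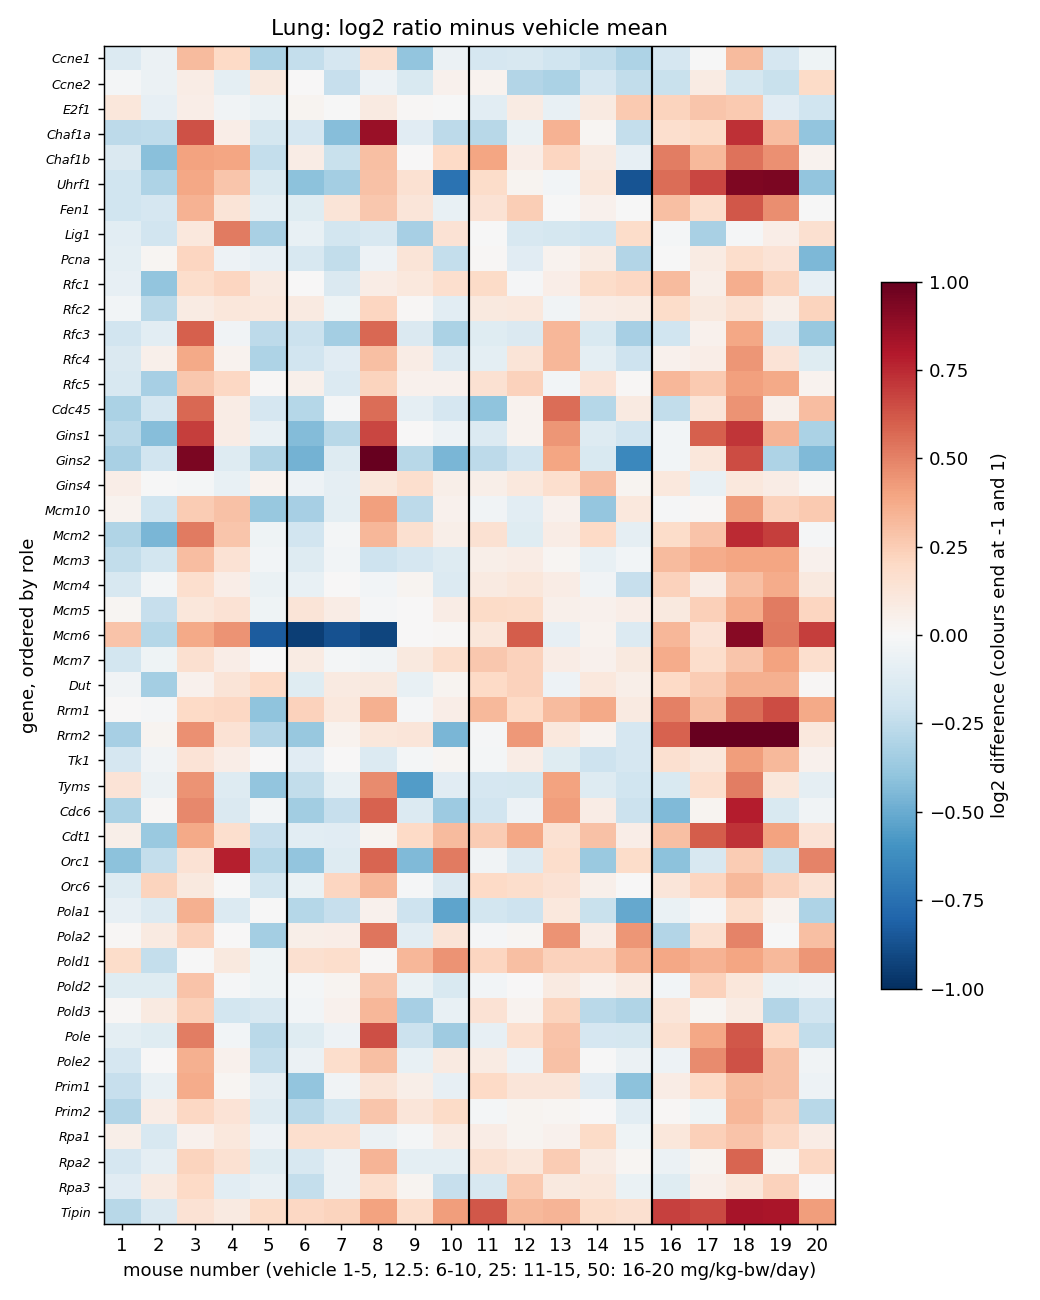
Log2 ratio of each of the 47 genes in each of the 20 lung mice minus the gene's mean in the 5 vehicle mice, with genes in rows by role and mice in columns by dose in mg/kg-bw/day. The columns of mice 16 to 19 at 50 mg/kg-bw/day are mostly on the higher side, mouse 20 less so, and vehicle mouse 3 is higher than the other vehicle mice.

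Tipin was the member that separated the lung groups most clearly. Its log2 ratio in vehicle mice 1 to 5 was −2.52, −2.39, −2.10, −2.15 and −2.05, and in the mice at 50 mg/kg-bw/day (16 to 20) −1.56, −1.58, −1.42, −1.43 and −1.82. All 5 of the latter lay above all 5 vehicle mice. In the mice at 12.5 mg/kg-bw/day (6 to 10) it was −2.03, −2.02, −1.84, −2.06 and −1.83, and at 25 mg/kg-bw/day (11 to 15) −1.62, −1.92, −1.90, −2.05 and −2.08. Both middle groups overlapped the vehicle mice at their low ends and lay mostly between vehicle and the highest dose. The log2 fold change at 50 mg/kg-bw/day was 0.68 (SE 0.10, 1.60-fold, limma adjusted p = 0.00751, n = 5 and 5), and the exact permutation p was 0.00794, the smallest that 5 against 5 mice allow. The low and middle doses had 0.28 and 0.33, neither past the test. The call was lost in 4 of 11 other ways of processing or fitting, where the log2 fold change ran from 0.56 to 0.91 and the highest adjusted p was 0.97.

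Among the genes of nucleotide supply, all 5 members had a lung mean above vehicle at 50 mg/kg-bw/day (median log2 difference 0.24), and 4 of them had an unadjusted p below 0.05. Rrm2, the small subunit of ribonucleotide reductase and the one made mainly in S phase, had the largest difference of the 47. Its log2 ratio was −4.79, −4.43, −4.00, −4.31 and −4.75 in vehicle mice 1 to 5 and −3.86, −3.41, −3.46, −3.41 and −4.35 in mice 16 to 20. Mice 16 to 19 lay above all vehicle mice, while mouse 20 lay among them. The difference was 0.76 (SE 0.18, limma adjusted p = 0.092, exact permutation p = 0.0238), and the mice at 12.5 mg/kg-bw/day (−4.91 to −4.33) and 25 mg/kg-bw/day (−4.62 to −4.03) overlapped vehicle. With the slide as a block, each lung slide holding 1 mouse of every group, Rrm2 was called (limma adjusted p = 0.00757). Rrm1, the large subunit, was −2.56, −2.58, −2.36, −2.36 and −2.97 in vehicle mice and −2.06, −2.27, −2.01, −1.92 and −2.19 at 50 mg/kg-bw/day. Here the groups did not overlap, with a difference of 0.48 (SE 0.10, limma adjusted p = 0.0599). Tk1 (0.21) and Dut (0.24) had smaller differences, and Tyms had one of 0.11 (SE 0.18).

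Of the 11 helicase members, 10 had a lung mean above vehicle at 50 mg/kg-bw/day, with a median of 0.26, and 6 had an unadjusted p below 0.05. These 6 were the whole MCM2-7 ring, with differences from 0.21 (Mcm4) to 0.52 (Mcm6). Mcm7, 1 subunit of the ring, was −2.80, −2.66, −2.46, −2.55 and −2.62 in vehicle mice 1 to 5 and −2.24, −2.44, −2.34, −2.22 and −2.45 in mice 16 to 20. The groups did not overlap, though by a narrow margin (difference 0.28, SE 0.07, limma adjusted p = 0.132). Mcm6 varied far more between mice, from −3.79 to −2.51 in vehicle and −2.82 to −2.05 at 50 mg/kg-bw/day, and at 12.5 mg/kg-bw/day it was lower than vehicle by a log2 difference of −0.54 (SE 0.24, limma adjusted p = 1.0). The helicase activators that join the ring had differences of 0.14 (Cdc45), 0.26 (Gins1), −0.00 (Gins2) and 0.04 (Gins4), and Mcm10, which helps to activate it, had 0.18, all with an unadjusted p above 0.05.

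Polymerases and primase were higher for 7 of 9 members, with a median of 0.13, but 1 alone had an unadjusted p below 0.05. That was Pold1, the catalytic subunit of polymerase delta, at −1.85, −2.27, −2.04, −1.94 and −2.08 in vehicle mice and −1.65, −1.69, −1.64, −1.71 and −1.60 at 50 mg/kg-bw/day. Every treated mouse lay above every vehicle mouse (difference 0.38, SE 0.08, limma adjusted p = 0.0541). The exact permutation p of 0.00794 is fixed by that separation and adds nothing to it. At 25 mg/kg-bw/day every mouse also lay above every vehicle mouse (−1.82 to −1.69, difference 0.26). The other subunits of polymerase delta had differences of 0.04 (Pold2) and −0.05 (Pold3), and the catalytic subunit of polymerase alpha, Pola1, had −0.04. Counting over the list, the lung groups at 50 mg/kg-bw/day lay fully above vehicle for 4 of 47 members (Tipin, Rrm1, Pold1 and Mcm7), against 1.26% of all probes.

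In chromatin assembly and maintenance all 3 members were higher (median 0.37). Uhrf1, which carries DNA methylation over to the new strand, was −4.48, −4.59, −3.89, −4.00 and −4.44 in vehicle lung and −3.73, −3.61, −3.35, −3.34 and −4.67 at 50 mg/kg-bw/day. As for Rrm2, mice 16 to 19 lay above all vehicle mice and mouse 20 was low, in this case below all of them (difference 0.54, SE 0.25, limma adjusted p = 0.533, exact permutation p = 0.0952). A second, dim probe of Uhrf1 had a difference of 0.03, so its probes disagree in size. Chaf1b and Chaf1a, subunits of the chromatin assembly factor, had differences of 0.37 and 0.20, and the second probe of Chaf1b had 0.43.

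The other roles held both kinds of gene. Of the licensing factors, Cdt1 had a difference of 0.43 (SE 0.13) and Orc6 one of 0.21 (SE 0.09), while Cdc6 (0.04) and Orc1 (−0.01) were well above background on 6 and 6 of the 20 lung arrays. In the clamp group, Fen1, the flap nuclease, had 0.31 (SE 0.12) and the loader subunit Rfc5 0.28 (SE 0.10), but PCNA itself had −0.01 (SE 0.11) and the DNA ligase Lig1 −0.03 (SE 0.13). The single strand binding subunits Rpa1, Rpa2 and Rpa3 had 0.18, 0.16 and 0.05. Of the S phase entry genes, Ccne1 had −0.01 (SE 0.12) and E2f1 0.09 (SE 0.09), and 0 of 3 had an unadjusted p below 0.05.

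**Figure D2:**
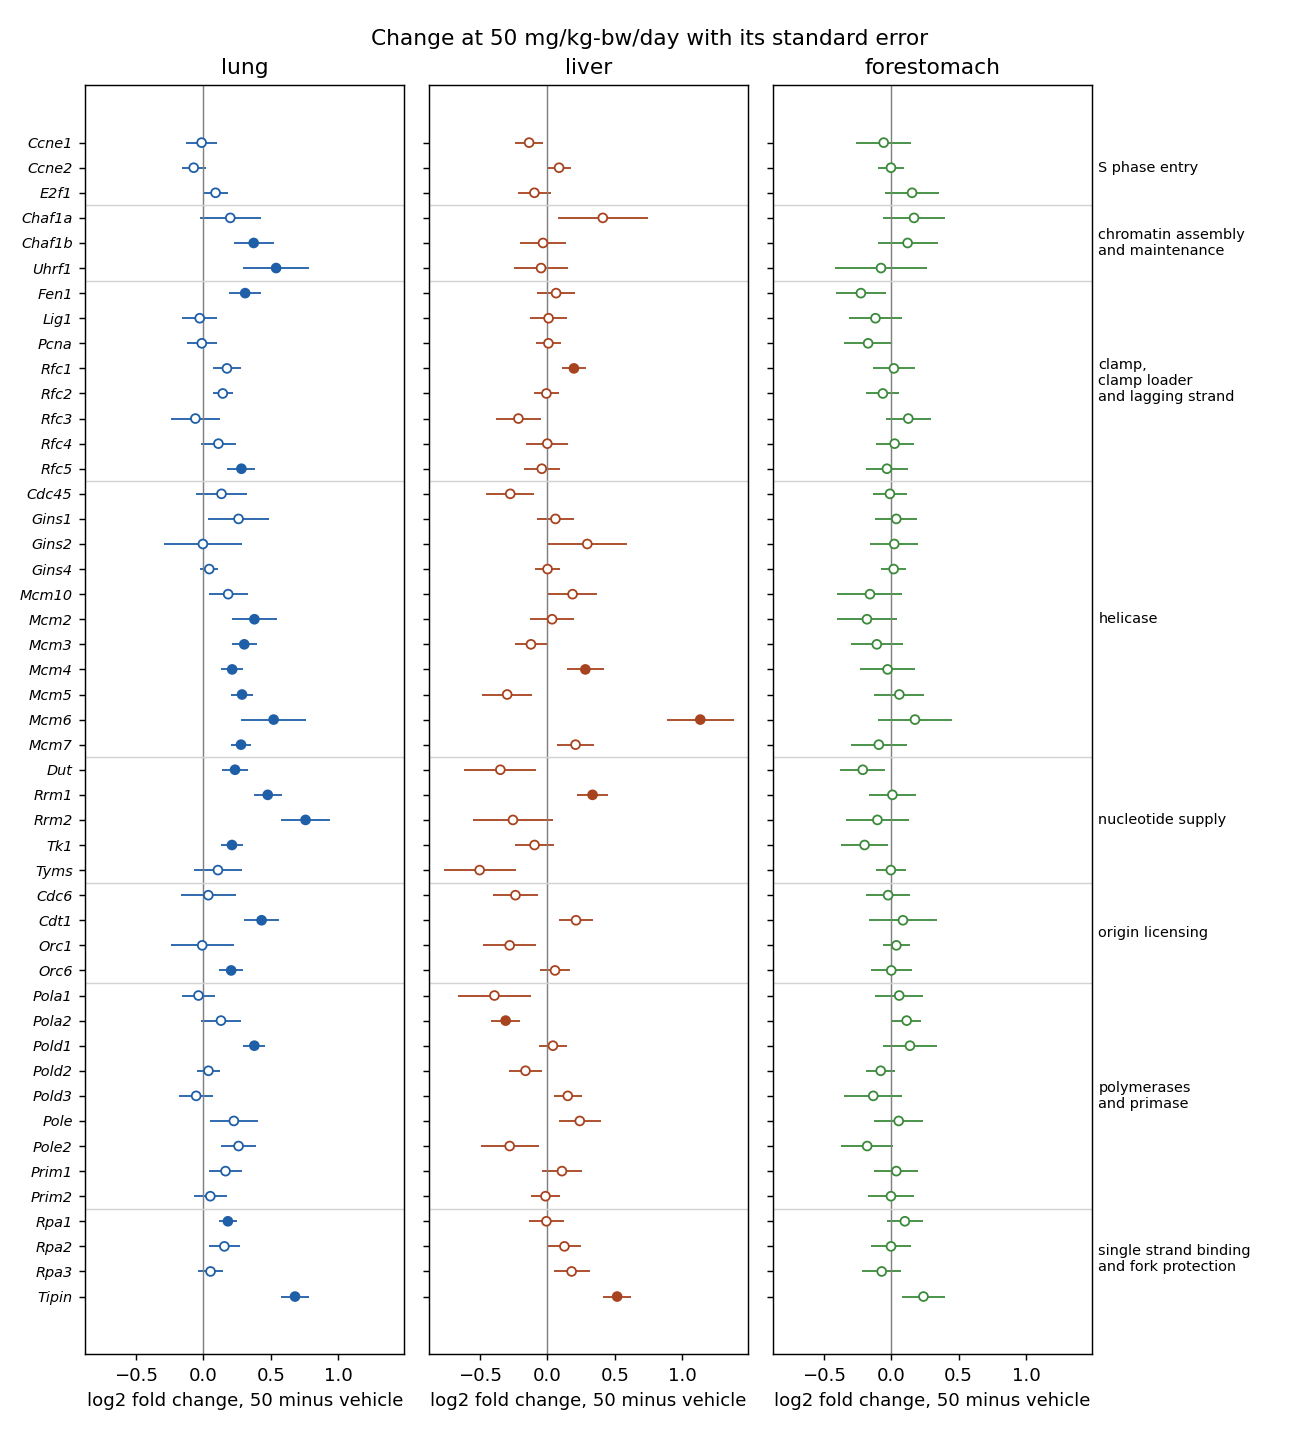
Log2 fold change at 50 mg/kg-bw/day against vehicle, with its standard error, for each of the 47 genes in lung, liver and forestomach, grouped by role; filled points have an unadjusted limma p below 0.05. Lung points lie mostly to the right of 0 with Rrm2 (0.76) and Tipin (0.68) farthest, and liver has Mcm6 (1.13) alone on the far right.

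At the lower doses the lung list stayed near vehicle. At 12.5 mg/kg-bw/day 23 of 47 members lay above the vehicle mean (median −0.01) and at 25 mg/kg-bw/day 30 of 47 (median 0.04). None was called at either dose (limma), against 0% of all probes at 12.5 and 0.0126% at 25 mg/kg-bw/day, and 3 and 4 members had an unadjusted p below 0.05, against 3.92% and 6.53% of probes. A test of the slope on dose called 2 members, against 0.14% of all probes. These were Tipin (0.64 per 50 mg/kg-bw/day, SE 0.10, limma adjusted p = 0.00673) and Rrm1 (0.47, SE 0.10, limma adjusted p = 0.0432). Next in order by limma were Rrm2 (0.83, adjusted p = 0.0776), Pold1 (0.34, adjusted p = 0.0881) and Mcm7 (0.28, adjusted p = 0.0953). With the slide as a block 5 members were called, these 3 being added to Tipin and Rrm1 (limma adjusted p from 0.00278 for Tipin to 0.0479 for Mcm7). In all, 20 members had an unadjusted p below 0.05, against 8.81% of probes. The count of slope calls was 4 without vehicle mouse 3 and 1 without any 1 of mice 1, 2, 5, 6, 7, 9, 11, 13, 14, 16, 17, 18 or 19, and it was 1 without the bright slide.

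The mean over the 47 members in each lung mouse, set to 0 at the vehicle mean, was −0.12, −0.13, 0.29, 0.10 and −0.14 in vehicle mice 1 to 5 and 0.11, 0.20, 0.43, 0.23 and 0.02 in mice 16 to 20. The groups overlapped. Vehicle mouse 3, on the bright slide, was higher than all but 1 treated mouse, and vehicle mouse 4 was higher than treated mouse 20. Within a slide, each of which held 1 array per group, the 50 mg/kg-bw/day mouse was higher than the vehicle mouse for 38, 41, 35, 40 and 17 of 47 members on slides 1 to 5, with medians of 0.20, 0.31, 0.13, 0.37 and −0.05. On 4 slides most members were higher, and on the fifth, with mice 4 and 20, most were lower. Tipin was higher on 5 of 5 slides, by 0.33 to 0.96, and so were Mcm4, Mcm5, Mcm6, Mcm7, Pold1, Rpa2 and Rrm1. Without the bright slide, 39 of 47 members lay above vehicle (median 0.19) and Tipin had 0.68 with a limma adjusted p of 0.0451.

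**Figure D3:**
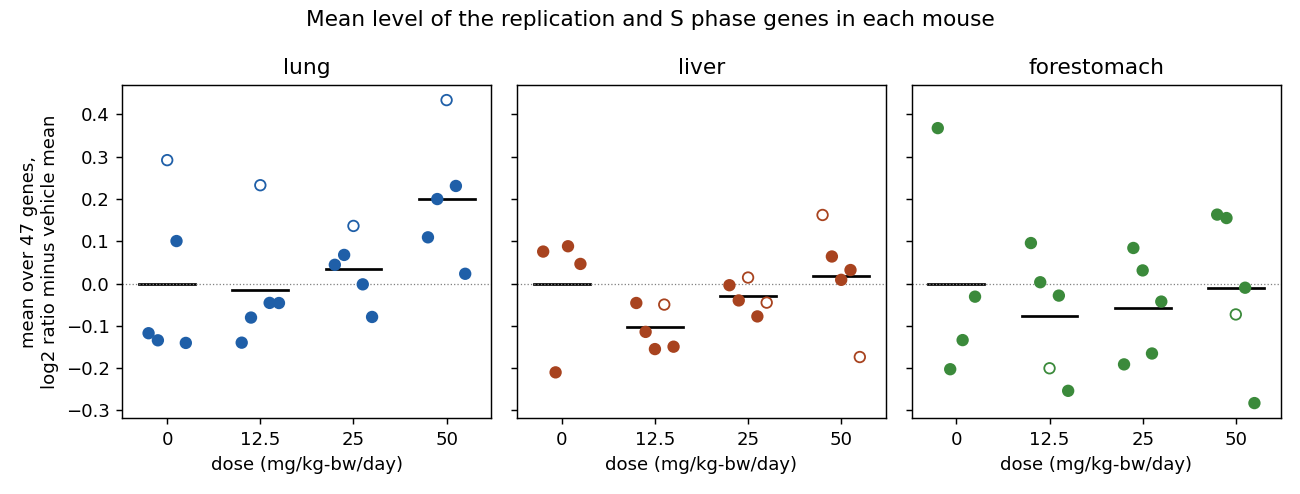
Mean over the 47 genes of the log2 ratio minus the vehicle mean, by dose in mg/kg-bw/day, with 1 point per mouse, the group mean as a black line, and hollow points for the arrays that stood apart in brightness. In lung the 5 mice at 50 mg/kg-bw/day lie between 0.02 and 0.43 and the vehicle mice between −0.14 and 0.29, while in liver and forestomach the groups cover each other.

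The lung samples also differed in other cell types. Brown fat markers were lower at 50 mg/kg-bw/day for 4 of 4 genes (median −1.33), and 1 of them, the uncoupling protein gene Ucp1, was called (−3.05, SE 0.54, limma adjusted p = 0.0164). The list had a list mean of 0.50 to 2.63 in vehicle mice and 0.23 to 0.93 in treated mice. Ucp1, its defining gene, was well above background on 10 of 20 arrays, in 4 of 5 vehicle and 2 of 5 treated mice. White fat markers were lower for 5 of 5 genes (median −1.44, vehicle 1.72 to 4.00, treated 1.23 to 2.48) and heart muscle markers for 5 of 5 (median −1.51, vehicle 2.03 to 4.79, treated 0.09 to 3.23). Mesothelium markers were lower for 4 of 4 (median −0.82, vehicle −0.34 to 0.54, treated −1.61 to 0.31). B cell markers went the other way, higher for 6 of 6 (median 0.67, vehicle −0.12 to 1.01, treated 0.97 to 1.41). Lung epithelium markers had a median of −0.00, with 5.66 to 6.12 in vehicle and 5.53 to 6.18 in treated mice. Apart from lung epithelium, every gene of these lists had the same direction at the low and the middle dose. Medians there were −1.15 and −1.26 for brown fat, −0.67 and −1.62 for white fat, and −1.45 and −1.92 for heart muscle. Mesothelium had −0.59 and −1.22, and B cells 0.52 and 0.54. The replication genes had medians of −0.01 and 0.04 at these lower doses. The part of these cell types in the difference of the replication genes was not tested.

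Other genes of the cell cycle were followed with lists of their own. In lung at 50 mg/kg-bw/day all 15 mitosis genes had a mean above vehicle, with a median of 0.45, and 4 were called. These were Spc25, a kinetochore protein (1.16, adjusted p = 0.0288), Birc5, or survivin (1.06, adjusted p = 0.00751), the proliferation marker Mki67 (0.90, adjusted p = 0.0444) and Cdc20, an activator of the anaphase promoting complex (0.79, adjusted p = 0.0021), all by limma and higher in 5 of 5 mice. Of 14 G1/S activators 11 were higher (median 0.11) and 1 was called, the S phase cyclin Ccna2 (0.97, limma adjusted p = 0.0173), while the transcription factor E2f3 had 0.37. Of 19 G1/S inhibitors 16 were higher (median 0.18) with 0 called by limma and 8 at an unadjusted p below 0.05, E2f8 (0.45) and the pocket protein Rbl1 (0.39) foremost. A further 44 replication and chromatin assembly genes outside the 47 had 32 higher (median 0.05), 0 called and 8 higher against 1 lower at an unadjusted p below 0.05, with Top2a, topoisomerase II alpha (0.48), and Gmnn, the Cdt1 inhibitor geminin (0.45), largest. Of 20 other nucleotide supply genes 14 were higher (median 0.04), 0 were called and 3 had an unadjusted p below 0.05, led by the mitochondrial kinases Tk2 (0.35) and Dguok (0.28).

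The E2F octamers did not sort the members by their lung values in a simple way. The 14 members with a match had a median of 0.27 at 50 mg/kg-bw/day with 9 of 14 higher, the 24 without one had 0.18 with 22 of 24 higher, and the 9 without a promoter entry had 0.14 with 7 of 9 higher. Mcm6 and Mcm5, whose octamers are printed above, had 0.52 and 0.29, and Rrm2 and Rrm1, with none in the window, had 0.76 and 0.48.

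**Figure D4:**
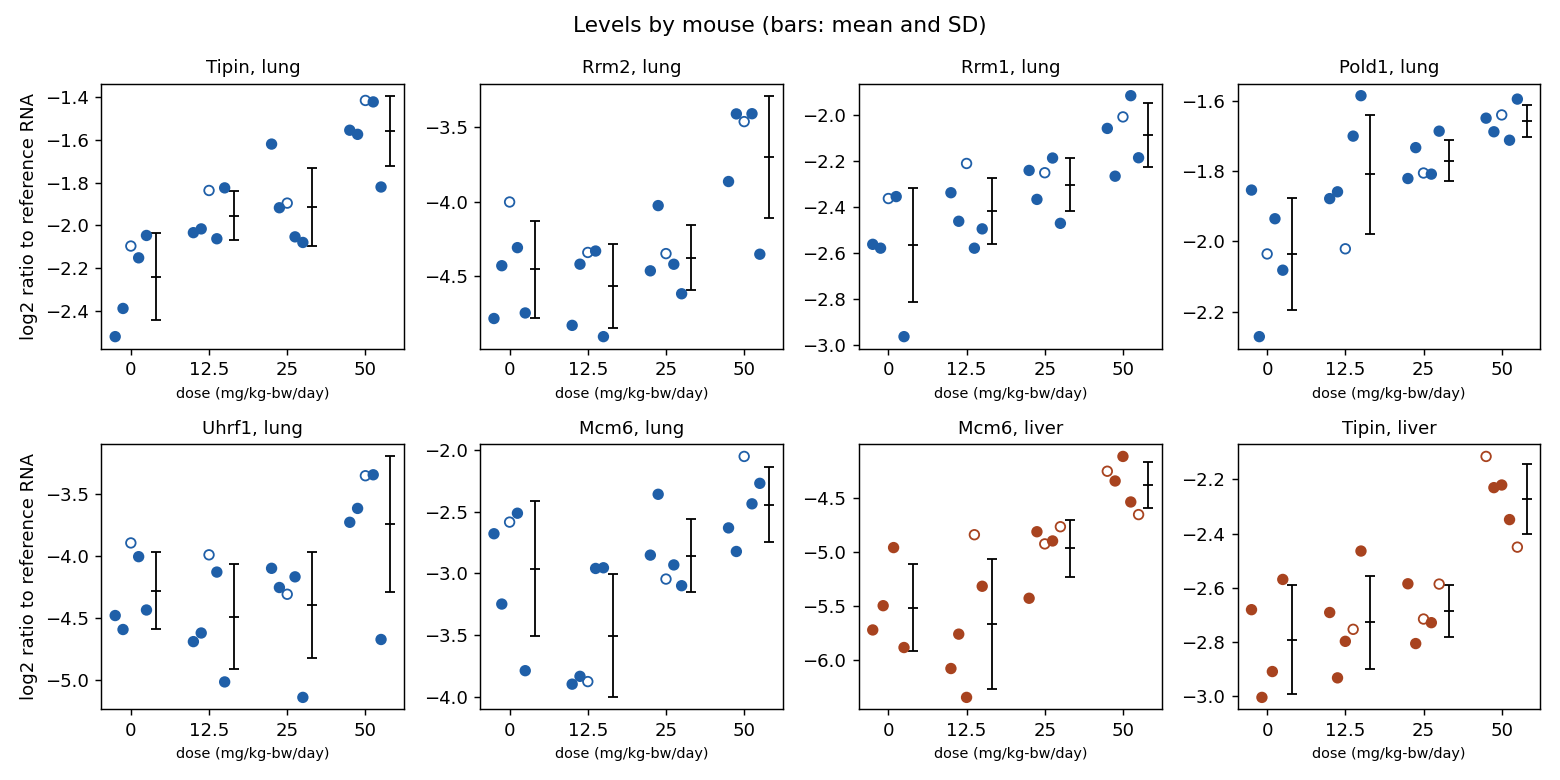
Log2 ratio to the reference RNA in each mouse, by dose in mg/kg-bw/day, for the genes with the clearest or largest differences; points are mice, hollow points are the arrays that stood apart, and black lines are group means. Lung Tipin goes from a mean of −2.24 in vehicle to −1.56 at 50 mg/kg-bw/day, and liver Mcm6 at 50 mg/kg-bw/day lies above all vehicle mice.

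In the liver, the list as a whole had no common direction. At the high dose 25 of 47 members lay above the vehicle mean (median 0.00, range −0.50 to 1.13), and at the lower doses 12 and 22 did (medians −0.11 and −0.02). No member was called at any dose (limma), and 0% of all probes were called in each of the 3 comparisons. At 50 mg/kg-bw/day 5 members were higher and 1 lower with an unadjusted p below 0.05, against 2.45% of probes in the higher direction and 6.87% in either. At 12.5 mg/kg-bw/day 2 were lower (2.6% of probes in either direction), and at 25 mg/kg-bw/day 2 were higher and 2 lower (4.44%). The median moved to 0.57 where arrays were centred on their median in place of loess, with 46 of 47 higher, so the direction of the list in liver depends on the scaling. Under that scaling 33 members were higher with an unadjusted p below 0.05 and 0 lower. The median over all probes there was 0.06, and the share of all probes past that limit was not counted. The 5 higher members became 3 without any 1 of mice 1, 2, 16 or 18, with the Cy5 signal alone and with slide as a block, and 8 with the scanner software's log ratio.

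Mcm6, the helicase ring subunit, had the largest liver difference. Its log2 ratio was −5.72, −5.50, −4.96 and −5.88 in vehicle mice 1, 2, 3 and 5, and −4.25, −4.34, −4.12, −4.54 and −4.65 in mice 16 to 20. All 5 treated mice lay above all 4 vehicle mice. The mice at 12.5 mg/kg-bw/day (6 to 10) had −6.08, −5.76, −6.34, −4.84 and −5.32, and those at 25 mg/kg-bw/day (11 to 15) −5.43, −4.81, −4.92, −4.90 and −4.77. In the last group 4 of 5 mice lay above all vehicle mice. The difference was 1.13 at 50 mg/kg-bw/day (SE 0.25, limma adjusted p = 0.303, exact permutation p = 0.00794) and 0.55 at 25, and the slope was 1.31 per 50 mg/kg-bw/day (SE 0.24, limma adjusted p = 0.136). Liver slopes were called for 0% of probes and 0 members (limma), with 9 members at an unadjusted p below 0.05, against 6.98% of probes.

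Tipin was second in the liver, at −2.68, −3.01, −2.91 and −2.57 in vehicle mice 1, 2, 3 and 5 and −2.12, −2.23, −2.22, −2.35 and −2.45 in mice 16 to 20. Again the treated mice lay above all vehicle mice (difference 0.52, SE 0.11, limma adjusted p = 0.293, exact permutation p = 0.00794). Mcm6 and Tipin were the 2 members with this separation, against 1.14% of probes. The thymidylate synthase gene Tyms had −0.46, −0.61, −0.59 and −0.29 in vehicle and −1.74, −0.49, −0.85, −0.41 and −1.44 at 50 mg/kg-bw/day. Its low values belong to mice 16 and 20, whose arrays stood apart in brightness, and the difference of −0.50 (limma adjusted p = 0.739) became −0.10 without the arrays that stood apart. Pola2, the accessory subunit of polymerase alpha, was −0.65 to −0.53 in vehicle and −1.09 to −0.78 at 50 mg/kg-bw/day, the 1 member whose treated mice all lay below vehicle, against 1.59% of probes. It was well above background on 5 of 19 liver arrays and in 0 of the 4 vehicle livers, so these values carry no fold. Without the arrays that stood apart Mcm6 had 1.18 (limma adjusted p = 0.13) and Tipin 0.52 (limma adjusted p = 0.206). Hepatocyte markers were lower for 7 of 8 genes at this dose (median −0.46), and their part in these values was not tested.

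By role, the liver helicase group had 8 of 11 members above vehicle at 50 mg/kg-bw/day (median 0.06), while nucleotide supply had 1 of 5 (median −0.25). The exception in nucleotide supply was Rrm1 (0.34, SE 0.12, limma adjusted p = 0.713). Of the other cell cycle lists, 8 of 15 mitosis genes were higher (median 0.00, Cdc20 0.70 and Spc25 0.49) and 14 of 44 further replication genes (median −0.06, Top2a −0.49 and Dscc1 −0.43). G1/S activators had 7 of 14 higher (Mybl2 −0.52, Cdk6 −0.27), inhibitors 9 of 19 (E2f8 0.46, E2f7 −0.46) and other nucleotide genes 7 of 20 (Ppat −0.62, Shmt1 −0.37). None of these genes was called in liver by limma. At an unadjusted p below 0.05, 2 mitosis genes were higher and 1 lower, and each other list had 1 gene lower and 0 higher.

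In the forestomach no member was called at any dose (limma, 0% of all probes in each comparison), and none had an unadjusted p below 0.05, against 4.12%, 3.6% and 3.89% of probes at the low, middle and high dose. The members above vehicle numbered 17, 16 and 22 of 47 in the same order, with medians of −0.08, −0.03 and −0.00. At the high dose this count depended on single vehicle mice. It was 38 without vehicle mouse 1 (median 0.14), and 13 without vehicle mouse 2 (median −0.06) or vehicle mouse 3 (median −0.05). Tipin had the largest difference in forestomach at the high dose, at −1.72, −2.37, −2.47 and −1.74 in vehicle mice 1, 2, 3 and 5 and −1.60, −1.63, −1.86, −1.82 and −2.28 at 50 mg/kg-bw/day. The groups overlapped, since vehicle mice 1 and 5 were as high as the treated mice (difference 0.24, SE 0.16). Fen1 was −1.17, −1.95, −1.76 and −1.63 in vehicle and −1.53, −1.52, −2.00, −1.95 and −2.26 at 50 mg/kg-bw/day, and Dut −1.57, −2.24, −2.17 and −2.04 against −2.00, −1.95, −2.40, −2.11 and −2.61. In both the vehicle spread covered most treated mice, and the differences were −0.22 and −0.21. These took the opposite sign, 0.18 and 0.16, with arrays centred on their median, and the median of the list became 0.34. The forestomach slope was called for 0% of probes and 0 members, with 0 at an unadjusted p below 0.05 (limma), against 4.3% of probes.

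The forestomach samples were uneven in tissue content. Glandular stomach markers had a list mean of 0.63 in vehicle mouse 1 and 6.59 to 6.67 in vehicle mice 2, 3 and 5, and 1.43 to 6.81 at 50 mg/kg-bw/day. Spermatid markers were higher at 50 mg/kg-bw/day for 5 of 5 genes (median 2.52, vehicle −0.18 to 0.46, treated 0.61 to 3.36), and white fat markers for 4 of 5 (median 1.46). The part of these in the forestomach values was not tested. On the 4 slides shared by vehicle and treated mice, 10, 42, 26 and 10 of 47 members were higher at 50 mg/kg-bw/day, with medians of −0.22, 0.39, 0.02 and −0.15. The mitosis genes were lower for 15 of 15 (median −0.19, Mki67 −0.70 and Birc5 −0.44), with 0 called by limma and 1 lower at an unadjusted p below 0.05. The remaining lists were near vehicle, with 5 of 14 G1/S activators higher (Ccna2 −0.31, Ccnd2 0.29), 11 of 19 inhibitors (Cdkn2b −0.32, Rb1 0.28), 23 of 44 further replication genes (Asf1b −0.29, Top1 −0.29) and 11 of 20 other nucleotide genes (Ctps −0.41, Umps −0.36).

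Whether the effect at 50 mg/kg-bw/day differed between tissues was tested in 1 fit of all 58 arrays. No member passed (limma, adjusted p of at most 0.05), against 0.0162% of probes for lung minus liver, 0.0144% for lung minus forestomach and 0.00359% for forestomach minus liver. At an unadjusted p below 0.05 there were 7, 7 and 2 members, against 7.08%, 2.91% and 6.17% of probes. Rrm2 had the largest difference in both comparisons with lung, though Tipin, Fen1 and Rrm1 had lower p-values against forestomach. Its effect was larger in lung than in liver by 1.01 (SE 0.36, limma adjusted p = 0.532) and than in forestomach by 0.86 (SE 0.36, limma adjusted p = 1.0). Liver Rrm2 was uneven in vehicle mice, at −3.32 in mouse 3 and −5.56 to −4.79 in the others. The effect on Tipin in lung exceeded that in forestomach by 0.44 (SE 0.18), and the effect on Mcm6 in forestomach was below that in liver by −0.96 (SE 0.39), neither past the test. The comparisons share arrays, and the animals are the same in all 3 tissues.

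The last comparison asked how the members differed between the tissues of vehicle mice. Forestomach exceeded liver for 21 of 47 members and was lower for 1, with a median difference of 0.47, against 12.8% of all probes higher and 9.89% lower (21.9% and 15.6% of named genes). Forestomach exceeded lung for 22 and was lower for 1, with a median of 0.53, against 8.9% and 10.6% of probes (14.6% and 17.2% of named genes). Lung exceeded liver for 10 and was lower for 7, with a median of 0.13, against 15.7% and 11.1% of probes (25.3% and 16.7% of named genes). With arrays centred on their median the splits became 23 to 1, 2 to 4 and 33 to 1, and the median of forestomach minus lung became −0.00. The medians over all probes were then 0.06, 0.00 and 0.00 in the same order, and the shares of probes called were not counted. The split of forestomach against liver kept its direction under both scalings, and both comparisons with lung changed with the scaling. Without the shares of probes, the splits under median centring cannot be read as a result about the members. All liver arrays were on slides 6 to 8, and lung and forestomach arrays on slides 1 to 5. The liver files also came from another version of the scanner software. Tissue, slides and version therefore cannot be told apart in the comparisons with liver. With loess the split of lung against liver was near the shares of named genes, so it gave lung no clear place above liver.

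**Figure D5:**
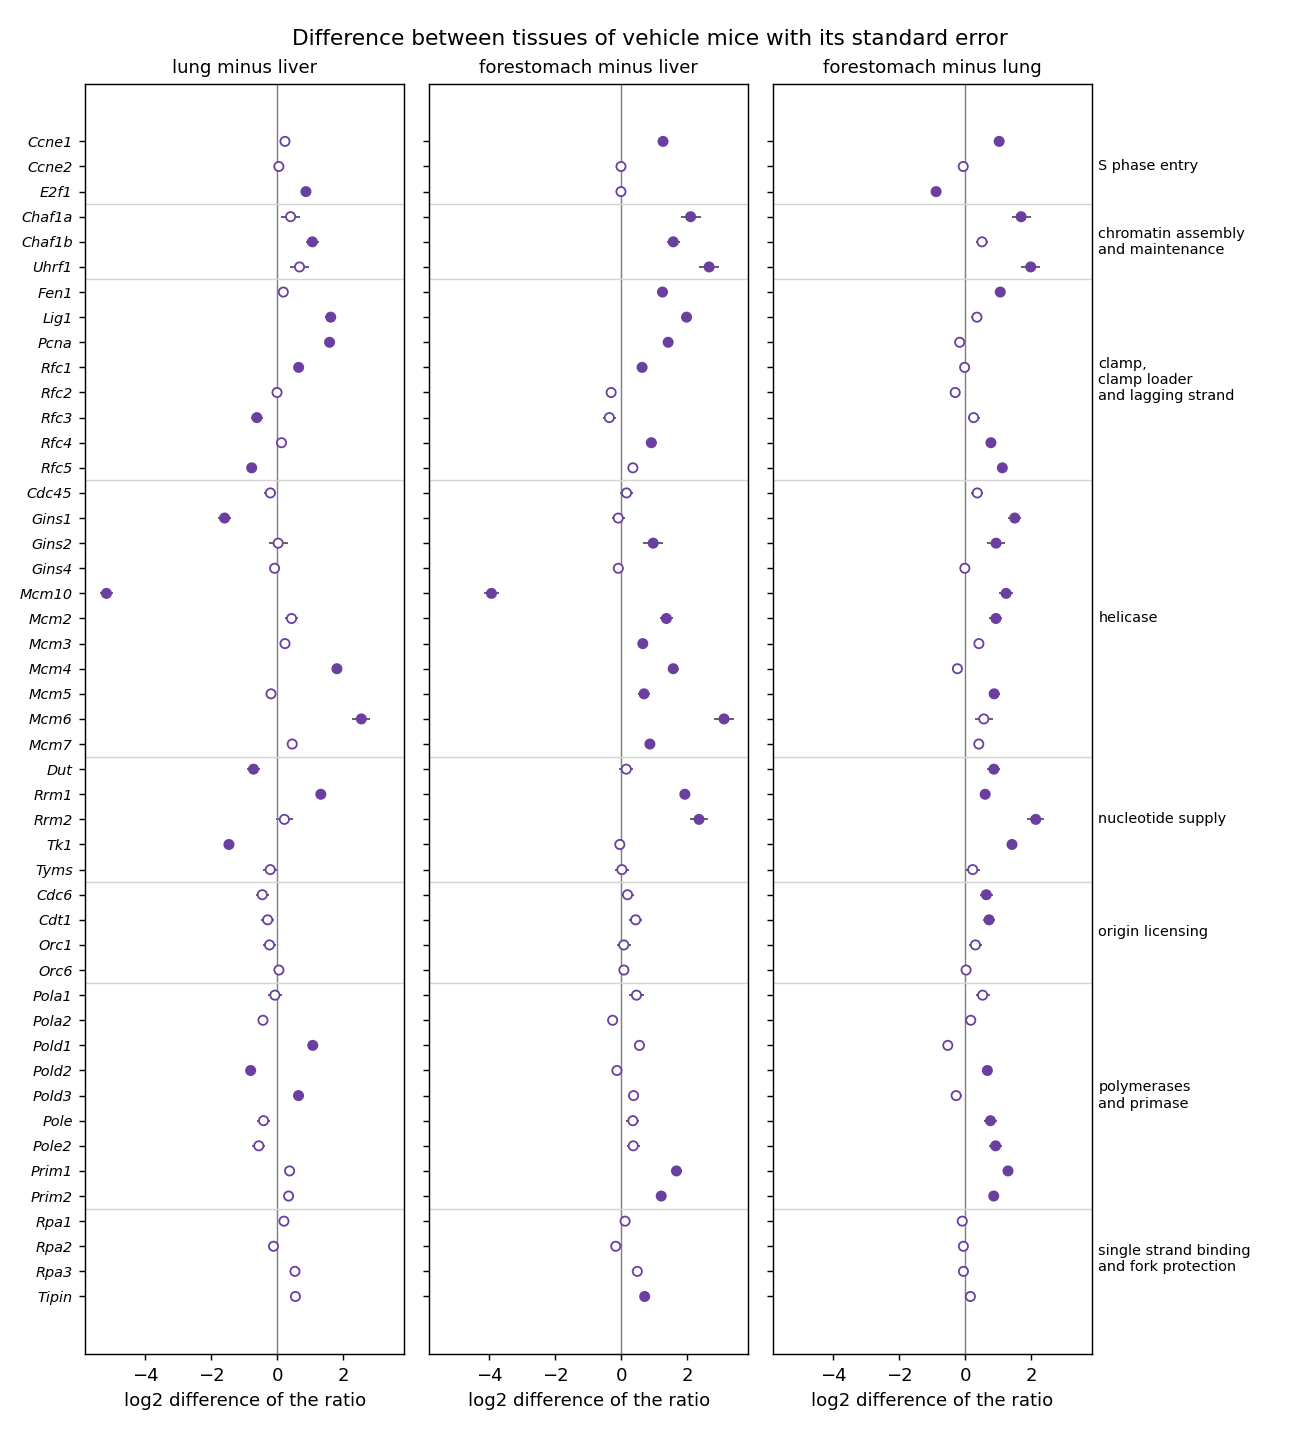
Log2 difference between tissues of vehicle mice, with its standard error, for each of the 47 genes grouped by role; filled points passed the test (adjusted p of at most 0.05 and 1.5-fold). Most filled points lie to the right in the comparisons of forestomach with liver (21) and lung (22), and Mcm10 lies far to the left in both comparisons with liver (−5.18 and −3.93).

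Single genes of nucleotide supply, chromatin and priming had higher means in vehicle forestomach than in both other tissues. Rrm2 was −2.31 ± 0.44 (SD, n = 4) in vehicle forestomach, −4.46 ± 0.33 (n = 5) in lung and −4.68 ± 0.96 (n = 4) in liver. Forestomach stood above both others by 2.14 and 2.36, and lung and liver did not differ past the test. Uhrf1 followed the same order at −2.29 ± 0.57, −4.28 ± 0.31 and −4.96 ± 0.30, though it was well above background in 1 of 4 vehicle livers, and Chaf1a at −1.08 ± 0.42, −2.78 ± 0.38 and −3.19 ± 0.23. Prim1, the catalytic primase subunit, was −2.04 ± 0.36, −3.35 ± 0.23 and −3.72 ± 0.13. All 3 chromatin, 7 of 11 helicase and 5 of 8 clamp group members were called higher in forestomach than in liver. Fewer were in nucleotide supply (2 of 5) and in polymerases and primase (2 of 9). Against lung the calls were 2 of 3 chromatin, 5 of 11 helicase and 3 of 8 clamp group members. They were 4 of 5 in nucleotide supply and 5 of 9 in polymerases and primase. Pole2 was not well above background in any vehicle liver and was at least 1.59-fold higher in forestomach.

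Some members separated liver from both other tissues. With loess, lung exceeded liver for 10 of 47 members, near the share of named genes (25.3%), and that split changed with the scaling. Mcm6 was −5.51 ± 0.40 (SD, n = 4) in liver, −2.96 ± 0.55 (n = 5) in lung and −2.39 ± 0.32 (n = 4) in forestomach, so liver was lower by 2.55 and 3.12 on the log2 scale. Mcm4, Pcna, Lig1, Rrm1, Chaf1b and Rfc1 were likewise lowest in liver and called against both. Mcm10 ran the other way, at 2.09 ± 0.27 in liver, −3.09 ± 0.29 in lung and −1.84 ± 0.17 in forestomach, and it stayed between 1.59 and 2.63 in every dosed liver. These values are those of its brightest probe, and what that probe detects in liver was not tested. Tk1 and Gins1 were lowest in lung, by −1.46 and −1.60 against liver and with forestomach above lung by 1.42 and 1.51. E2f1, a driver of S phase entry, was highest in lung, at −1.52 ± 0.08 against −2.40 ± 0.17 in liver and −2.40 ± 0.27 in forestomach. Without vehicle mouse 1, the 1 forestomach with few glandular markers, the counts of called members were 18 for lung against liver and 20 for each comparison with forestomach. The 3 vehicle forestomachs with glandular markers make the forestomach values those of a mixed sample, and the part of the glandular tissue in them was not tested.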

How the data were processed

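RNA of 58 tissue samples was hybridized with Universal Mouse Reference RNA to 2-colour Agilent 8x60K mouse arrays. Per the file headers, the deposited intensities are median pixel values per spot, without background subtraction, from Agilent Feature Extraction 10.7.3.1 (lung and forestomach) or 11.0.1.1 (liver). The deposited log10 ratios are the scanner software's own, after background subtraction and dye normalization. The authors also deposited log2 ratios, LOWESS normalized per their methods. These matched the scanner values in lung (r 0.996 to 0.999) and forestomach (0.997 to 0.999) and served as an alternative, but in liver they did not under the given probe names (r −0.007 to 0.007) and were not used. No authors' comparisons were used.

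Control spots and spots with outlier flags were left out, log2(Cy5/Cy3) was loess normalized within each array, and spots of a probe were averaged (R 4.3.3, limma 3.58.1, statmod 1.5.0). One fit per tissue compared each dose with vehicle and a second tested the slope on dose. A joint fit of 12 groups compared tissues. A call needed a two-sided Benjamini-Hochberg adjusted p of at most 0.05 over 55681 probes and, except for slopes and differences of effects, a fold of at least 1.5. The fits were tested on simulated data. Exact permutation tests are two-sided, unadjusted, and were run for 47 members in 9 comparisons. Where the groups do not overlap, the exact p takes its smallest possible value, so it only repeats the separation. The number of arrays limits the precision. A probe counts as measured where the scanner marks it well above background.

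The members and the lists of other genes and cell markers were chosen with earlier results of these data known. Values by mouse are given for called members, for the 3 largest differences of each tissue at the high dose, and for members whose groups did not overlap, the last chosen after their values were seen. Of the other cell cycle and nucleotide lists, called genes and the 2 largest differences are named, and of the cell marker lists called genes. Skp2, Muc6, Cd68, Ahsp and Amy2b of the lists were not matched on the array. Groups came from the sample titles, which number 5 vehicle mice in lung, where the study's methods give 4. Same mouse numbers mark the same animal, and deviations from the group mean of the same mouse correlated at a median r of 0.04 (lung and liver), 0.15 (lung and forestomach) and 0.02 (liver and forestomach). Alternatives were other normalizations, background corrections and filters, the Cy5 signal alone, blocks for slide and mouse, other test settings, and each mouse left out. One alternative, leaving out the arrays that stood apart in brightness, was chosen after seeing the data. Promoter sequences are those of RefSeq, build GRCm38.p6.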

Additional observations from a re-analysis of the deposited data

Results flagged for a closer look

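In 6 of 64 groups of 4 or 5 mice, 1 mouse lay far from the rest, by a gap to its nearest neighbour that was a large part of the group's whole range. Chance alone gives about 1 such group in 20. Uhrf1 in lung had 2 of them. At 25 mg/kg-bw/day mouse 15 was at −5.14 and the others between −4.31 and −4.10 (gap 0.799 of the range), and at 50 mg/kg-bw/day mouse 20 was at −4.67 and the others between −3.73 and −3.34 (0.712). Both arrays are on the fifth slide. Mcm6 in liver at 25 mg/kg-bw/day was −5.43 in mouse 11 and −4.92 to −4.77 in the others (0.760). Dut in forestomach at 12.5 mg/kg-bw/day was −1.66 in mouse 7 and −2.19 to −2.09 in the others (0.809). The mean over the 47 members was −0.21 in liver of vehicle mouse 2 and 0.05 to 0.09 in the other vehicle mice (0.860), and in lung at 12.5 mg/kg-bw/day it was 0.23 in mouse 8, whose array is on the bright slide, and −0.14 to −0.05 in the others (0.747).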

How the results depend on the processing

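In lung at 50 mg/kg-bw/day the 1 called member, Tipin, was lost with arrays centred on their median (0 called, adjusted p = 0.97), with the Cy5 signal alone (0, adjusted p = 0.356), with the scanner software's log ratio (0, adjusted p = 0.0919) and with the vehicle and high dose groups fitted alone (0, adjusted p = 0.0557), all by limma. With slide as a block 2 were called, Rrm2 being added (limma adjusted p = 0.00757). Leaving out 1 mouse at a time gave 1 to 2 calls, 2 without mouse 20. At an unadjusted p below 0.05 the counts at the low, middle and high dose were 3, 4 and 19 in lung and 2, 4 and 6 in liver, and at the high dose 4 and 33 with arrays centred on their median. The slope test in lung called 2 members, 0 with arrays centred on their median, 5 with slide as a block, 1 without the arrays that stood apart, and 1 to 4 with 1 mouse left out. Centring on the median moved the median of the members at 50 mg/kg-bw/day to 0.42 in lung, 0.57 in liver and 0.34 in forestomach, turned Tyms in liver to 0.052, Fen1 in forestomach to 0.18 and Dut in forestomach to 0.16, and changed the called members between vehicle tissues to 34 for lung against liver and 6 for forestomach against lung. Shares over all probes were not counted under that scaling. The causes were not tested. With the mouse as a replicate block in the joint fit the counts were 18, 22 and 23 between vehicle tissues and 0 for each difference of effects, and the block changed no count by more than 1.5 times. The authors' log2 ratios were not run for liver. Dim genes (Ccne2, Orc1, Cdc6, Pola2, Cdc45 and Pole2) have no measured level on many arrays.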

Other observations

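In liver, Uhrf1 was well above background in 1 of 4 vehicle mice, 2 of 5 at 12.5, 4 of 5 at 25 and 5 of 5 at 50 mg/kg-bw/day. Its log2 differences from vehicle were −0.19, −0.11 and −0.05 at these doses, so the count of mice in which it was detected and its ratio did not move together. Cdc45 was detected in 0 of 4 vehicle livers and in 2 of 5 at 50 mg/kg-bw/day, and Pole2 in 0 of 4 and 2 of 5. Of the 5 livers whose arrays stood apart in brightness, 2 were in the 50 mg/kg-bw/day group and 0 in vehicle.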
